A study of Rattus norvegicus with 10 samples.

Results

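The comparison described here set deacclimated rat hearts (DeAC) against hearts of untreated control rats, across all 14324 genes that the arrays could name. Its members are the 4 arrays of these groups, 2 control and 2 DeAC, out of 10 arrays in the series, and the sample labels alone chose them. All animals were rats of the albino Sabra strain, and the tissue was the left ventricle. Every array held RNA from 1 pool of 5 animals, so that each group had n = 2 pools and differences between single animals cannot be seen.

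Control rats were untreated and 1 month old, and the labels do not give the temperature of their housing. DeAC rats entered a chamber at 34 °C at 3 weeks of age, stayed for 30 days, then spent 30 days at 24 °C and were 3 months old. Any difference between these groups therefore joins earlier heat, recovery and 2 further months of growth, and these cannot be told apart. Other groups of the series serve below as a second reference: hearts taken directly after 30 days at 34 °C (AC30, 2 months old), hearts after 2 days of heat (AC2d, 1 month old), and reacclimated hearts that returned to 34 °C for 2 days after the recovery (ReAC, 3 months old). All of them had 2 pools.

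Heat acclimation is the slow adjustment of an animal to a warm environment. In the rodent heart it is known for a lower metabolic rate, a shift toward the slow myosin heavy chain, changed calcium handling and protection against lack of oxygen. Deacclimation is the loss of that state after return to a cooler room, and reacclimation is known to be faster than the first acclimation. The young rat heart is at the same time leaving its growth phase: dividing cells become rare, matrix is laid down at a falling pace, and the muscle comes to rely on fatty acids.

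Values are levels on a log2 scale after quantile normalization, and a difference of 1 means a doubling. Errors are standard errors (SE) of the log2 difference, with 1 moderated spread per gene that all 10 arrays inform. A gene passed when its adjusted p from limma lay under 0.05. The median array level lay between 5.95 and 6.10 as deposited, and the median change of all genes between control and DeAC was 0.0006 after normalization. In bulk tissue, fewer cells of a type and less RNA per cell cannot be told apart.

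The control pools differed from each other more than the pools of any other group did, and every change from control below rests on them. They enter the differences of DeAC from AC30 or ReAC only through the joint normalization and the shared spread. Between them, 57 genes lay more than 1 log2 unit apart, against 1 gene in DeAC and 0 or 1 in the other groups. Sarcolipin (Sln), an inhibitor of the calcium pump that rodents express in the atrium, read 11.94 in control pool 1 and 9.23 in control pool 2. Myl7, the atrial myosin light chain, read 13.20 and 10.97 in the same pools. In the DeAC pools Sln read 5.79 and 5.73, and Myl7 read 8.19 and 8.13, so that both DeAC pools lay far under either control pool.

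The summed level of the 15 measured atrial markers was 15.02 and 13.61 in control, against 13.02 and 13.03 in DeAC. It was 15.18 and 15.23 in AC2d, 15.61 and 15.47 in AC30, and 14.61 in each ReAC pool. None of these markers was at 0, since array values have a floor of background. Of the 15 markers, 7 passed as lower in DeAC and 1 as higher, and without control pool 2, 12 were lower. With all arrays, 46.7% of the list passed as lower and 6.67% as higher, against 3.77% and 4.45% of all genes. The median change of the list was -0.49, or -0.13 without control pool 1. The lower markers include Bmp10 (a growth factor of the atrial wall, -4.84 ± 0.43), Nppa (the atrial natriuretic peptide, -2.82 ± 0.28) and Mybphl (a myosin binding protein of the atrium, -2.71 ± 0.46). The labels call all samples left ventricle, and how much atrium a pool held was not measured.

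The control pools also lay apart in clock genes. Dbp, a transcription factor whose RNA cycles over the day, read 9.81 in control pool 1 and 8.03 in control pool 2, against 9.16 and 9.26 in DeAC. Nr1d1, a repressor in the clock loop, read 9.69 and 8.43 in control and 9.77 and 9.73 in DeAC. Bmal1, which runs in the opposite phase, read 8.21 and 8.58 in control and 8.38 and 8.39 in DeAC. For Dbp and Bmal1 the DeAC pools thus lay between the control pools, and none of the 18 clock genes measured passed in the comparison, 4 of them with an unadjusted p under 0.05. Without control pool 1, 5 clock genes were called higher in DeAC, and without control pool 2, 3 were called lower. Dbp changed by 1.18 in the first case and by -0.61 in the second, so the sign for this gene hangs on which control pool is used. Fat (Adipoq, 7.30 and 5.26) and nerve (Prph, 6.49 and 5.51) genes were likewise higher in control pool 1.

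**Figure D1:**
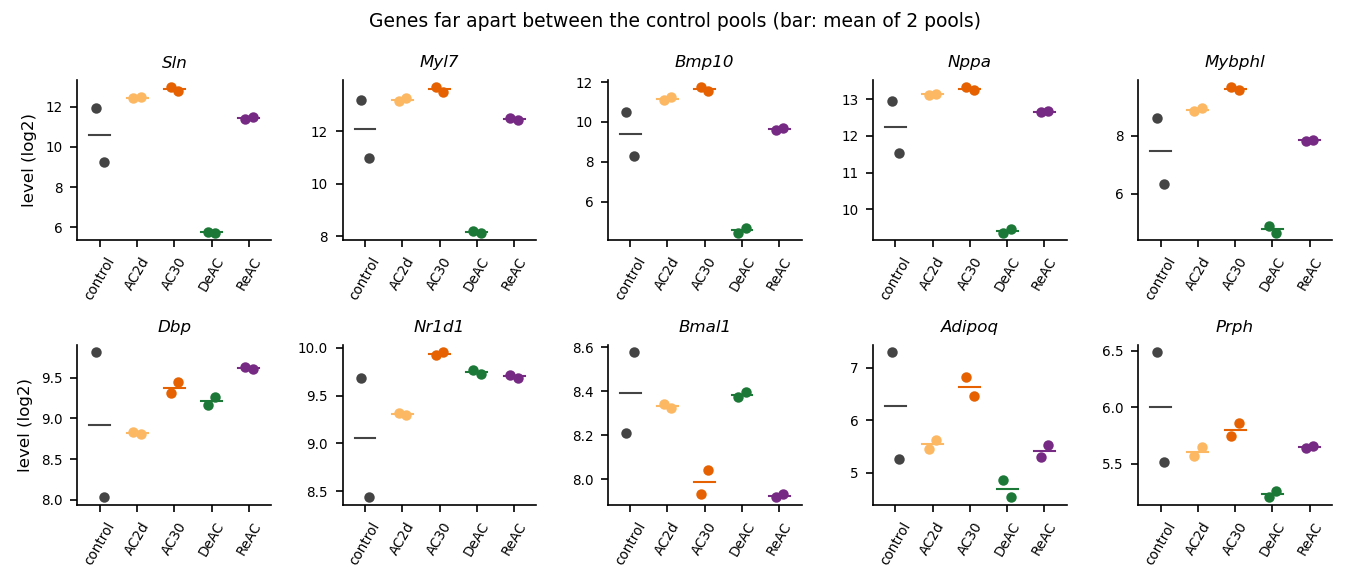
Levels (log2, vertical axis) of 10 genes in every pool of the 5 groups (horizontal axis), with 1 point per pool and a bar at the mean of the pools. The control pools lie apart for each gene, though much less so for Bmal1 than for Sln or Dbp. The DeAC pools are close together and under both control pools for Sln, Myl7, Bmp10, Nppa and Mybphl.

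Against control, 1178 genes passed in DeAC, which is 8.22% of the genes tested. Of these, 638 were higher (4.45%) and 540 lower (3.77%). These shares are the background for every list count against control in this report. Most changes were small: 109 of the genes called higher and 145 of those called lower moved by more than 0.5 log2 units, and 6 and 15 by more than 1. The pools of DeAC and control did not overlap for 7045 genes, 49.2% of all, so a lack of overlap alone marks little. The split into higher and lower depends on scaling. With each array scaled to its median in place of quantile normalization, 985 of 1202 calls were higher (81.95%, against 54.16%), and the median change of all genes was 0.075. Leaving out DeAC pool 2 reduced the calls to 464, and leaving out DeAC pool 1 to 683. Unless a sentence says otherwise, each change from control that is named from here on also passed in all 10 fits that left out 1 array. With median scaling the falls of Serpinh1, Adamts2, Plod2, Mfap4, Lamc1, Igf1, Grb10, H19, Fabp4, Egfl7, Calm2 and Trim55 did not pass (adjusted p from 0.05484 to 0.242). With 1 common prior spread for all genes in place of one that follows the level, the rises of Dcn, Acaa2, Pdk2, Hk2, Pfkm, Cd74, C1r and Map1lc3b did not pass (adjusted p between 0.0527 and 0.135).

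**Figure D2:**
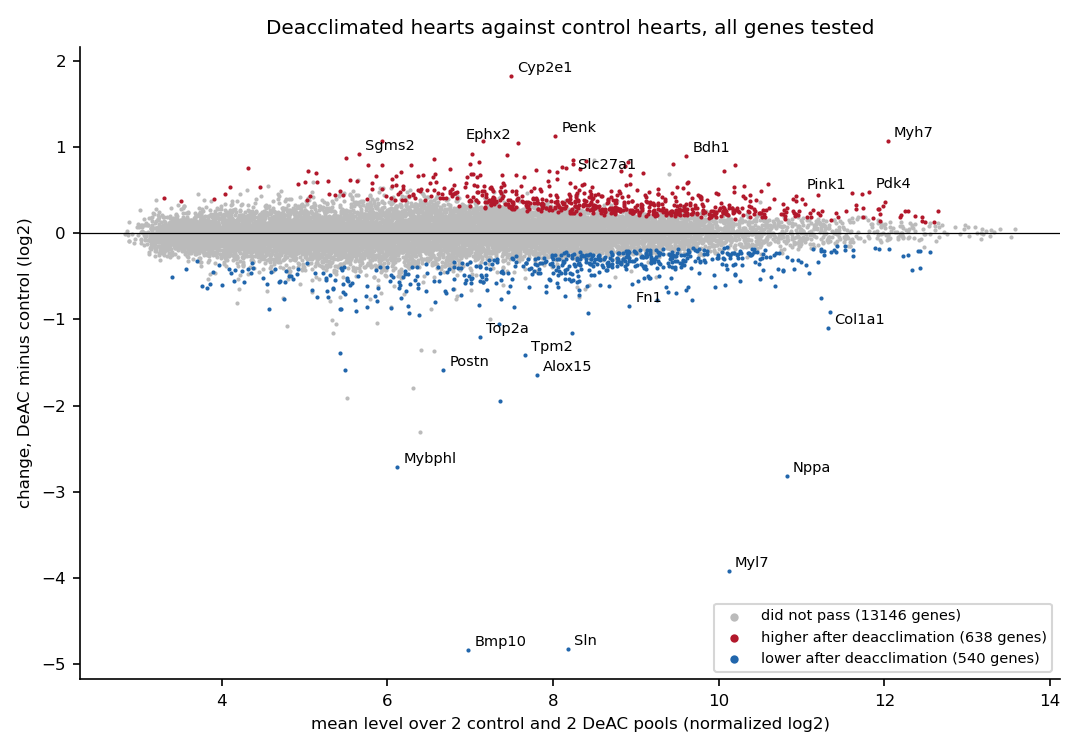
Change of each gene between control and DeAC (log2, vertical axis) against its mean level over the 4 pools (log2, horizontal axis), with 1 point per gene. Red points are the 638 genes called higher, blue points the 540 called lower, and the atrial genes Sln and Bmp10 are the lowest points.

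The widest rise belonged to Cyp2e1, a cytochrome P450 that oxidises ethanol, acetone and small solvents. Its level was 6.73 and 6.43 in control and 8.41 and 8.40 in DeAC, a change of 1.83 ± 0.13 or 3.55-fold (adjusted p = 7.4e-06). Enkephalin precursor (Penk), an opioid peptide gene that heart muscle expresses, read 7.62 and 7.30 against 8.63 and 8.55 (1.13 ± 0.09). Soluble epoxide hydrolase (Ephx2), which degrades the vasodilator epoxides of arachidonic acid, read 7.03 and 7.08 against 8.05 and 8.15 (1.04 ± 0.09). In each of these genes both DeAC pools stood above both control pools by more than the pools of a group stood apart.

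Further strong rises came from genes of different tasks. Sgms2, a sphingomyelin synthase of the plasma membrane, read 5.40 and 4.98 in control and 6.01 and 6.21 in DeAC (0.92 ± 0.15, adjusted p = 0.0024). Pla2g7, which cleaves platelet-activating factor and oxidised phospholipids, read 7.77 and 7.86 against 8.59 and 8.75 (0.86 ± 0.10). Slc22a3, a transporter that clears catecholamines and other organic cations, rose by 0.80 ± 0.12 and the unconventional myosin Myo16 by 1.07 ± 0.11. For all 4 genes the change was several times its standard error, which passing the threshold already implies.

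A deep fall outside the atrial genes was that of Alox15, a lipoxygenase that oxidises arachidonic and linoleic acid. It read 8.68 and 8.57 in control and 6.80 and 7.17 in DeAC (-1.64 ± 0.11, adjusted p = 7.4e-06). The matricellular protein periostin (Postn) went from 7.63 and 7.30 to 5.81 and 5.95 (-1.59 ± 0.14), and Pi15, a secreted peptidase inhibitor, from 6.55 and 5.69 to 4.42 and 5.05 (-1.39 ± 0.23). Hamp, which encodes the iron hormone hepcidin, had a larger mean fall (9.56 and 7.09 against 6.41 and 6.36, -1.95 ± 0.48, adjusted p = 0.0254), but its control pools lay far apart. Its change was -0.71 without control pool 1 and -3.18 without control pool 2, and it did not pass without DeAC pool 1 (adjusted p = 0.101) or DeAC pool 2 (0.144), with an untrended spread (0.0955) or with these groups fitted alone (0.124). Alox15 was low in every heat group, at -1.01 in AC2d, -1.33 in AC30 and -1.93 in ReAC against the same control pools. The difference between DeAC and AC30 did not pass for Alox15 (-0.32, adjusted p = 0.0773), though it passed without DeAC pool 2 (adjusted p = 0.0149), and that between DeAC and ReAC did not pass either (0.28, adjusted p = 0.230).

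Genes of fatty acid uptake and oxidation stood higher in DeAC. Of 54 measured, 21 passed as higher (38.9%, against 4.45% of all genes) and 2 as lower, with a median change of 0.19. Bdh1, the mitochondrial enzyme that interconverts the ketone bodies, read 9.26 and 9.06 in control and 9.97 and 10.15 in DeAC (0.89 ± 0.11, adjusted p = 0.00038). The fatty acid transporter Slc27a1 read 8.72 and 8.75 against 9.43 and 9.45 (0.70 ± 0.06, adjusted p = 3.9e-05). In both genes the DeAC pools were close together and, as in all 638 genes called higher, lay above both control pools.

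Along the path into the mitochondrion, the carnitine carrier Slc25a20 rose by 0.34 ± 0.05, and the last enzyme of the beta-oxidation spiral, Acaa2, by 0.26 ± 0.04. Uncoupling protein 3 (Ucp3), which is linked to fatty acid use in muscle, read 7.81 and 8.15 in control and 8.74 and 8.90 in DeAC (0.84 ± 0.12). Its relative Ucp2 went the other way, from 10.89 and 10.96 to 10.52 and 10.50 (-0.42 ± 0.05). The other member called lower was Fabp4, a lipid binding protein of fat and endothelium (-0.27 ± 0.07), a call that ended without control pool 1 (adjusted p = 0.133), DeAC pool 1 (0.0835) or DeAC pool 2 (0.123). Without DeAC pool 2 the count of 21 went to 9.

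Of 34 genes of the TCA cycle and the pyruvate dehydrogenase complex, 9 passed as higher (26.5%, against 4.45% of all genes) and 0 as lower, with a median change of 0.09. Kinases that turn pyruvate dehydrogenase off rose: Pdk4 went from 11.62 and 11.54 to 12.06 and 12.05 (0.48 ± 0.08), Pdk1 by 0.27 ± 0.04 and Pdk2 by 0.26 ± 0.04. The phosphatase with the opposite task, Pdp2, rose as well, from 8.61 and 8.50 to 8.95 and 9.04 (0.44 ± 0.07). Malic enzyme Me1, a source of NADPH, read 9.81 and 9.71 against 10.20 and 10.24 (0.46 ± 0.05). The count of 9 fell to 5 without either DeAC pool.

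In glycolysis, glucose transport and glycogen, 8 of 43 genes passed as higher (18.6%, against 4.45% of all genes) and 2 as lower (median change 0.07). Ugp2, which makes the sugar donor of glycogen, read 10.98 and 10.96 in control and 11.46 and 11.37 in DeAC (0.44 ± 0.06), and muscle hexokinase Hk2 rose by 0.26 ± 0.05. The platelet form of phosphofructokinase, Pfkp, fell from 8.30 and 8.13 to 7.65 and 7.73 (-0.53 ± 0.08). The muscle form, Pfkm, read 12.07 and 12.13 in control and 12.27 and 12.30 in DeAC (0.18 ± 0.04), and its call ended without DeAC pool 2 (adjusted p = 0.0889) or control pool 1 (0.0554). The count of 8 was 2 without DeAC pool 2, 4 without DeAC pool 1, 4 without control pool 1, and 5 without either ReAC pool.

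The respiratory chain itself moved little, with a median of 0.02. Of 74 subunit genes, 2 passed as higher (2.70%, against 4.45% of all genes) and 5 as lower (6.76%, against 3.77%). With 1 array left out the counts lay between 1 and 7 higher, the latter without control pool 2, and fell to 1 lower without DeAC pool 2. Ndufa10, a complex I subunit, was the larger rise (8.85 and 8.68 against 9.31 and 9.21, 0.50 ± 0.09). Mitochondrial ribosomal proteins leaned upward, with 59 of 67 above 0 and a median of 0.12, though 7 passed (10.4%, against 4.45% of all genes). The cytosolic ribosome gave 7 of 70 lower and a median of -0.04. With DeAC pool 1 or 2 left out, 4 and 3 mitochondrial and 3 and 1 cytosolic ribosome genes passed, and 4 of the cytosolic list without any 1 of the AC2d pools or control pool 1.

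Storage lipid enzymes moved in both directions. Gpam, which starts triglyceride assembly, read 10.13 and 10.10 in control and 10.54 and 10.52 in DeAC (0.41 ± 0.06), and Dgat1, which completes it, read 8.28 and 8.44 against 8.79 in both DeAC pools (0.43 ± 0.07). Squalene synthase (Fdft1) rose by 0.46 ± 0.06. Agpat3, an acyltransferase of the step between Gpam and Dgat1 that also remodels phospholipids, fell from 9.67 and 9.70 to 9.16 and 9.18 (-0.52 ± 0.06). Of 37 genes in the list, 7 passed as higher (18.9%, against 4.45% of all genes) and 3 as lower (8.11%, against 3.77%). The median was -0.03. With DeAC pool 2 left out, 3 were higher, and the lower count was 8 without control pool 2 and 1 without DeAC pool 1.

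Several of the metabolic genes stood on opposite sides of control in AC30 and in DeAC. Across all genes, DeAC minus AC30 gave 2478 calls, 17.3% of the genes tested, and 1445 without AC30 pool 1 or 1527 without DeAC pool 2. Of the 54 genes of fatty acid uptake and oxidation, 42 passed as higher in DeAC than in AC30 (against 9.85% of all genes) and 1 as lower (7.45% of all genes). Bdh1 was 1.07 below control in AC30 and 0.89 above it in DeAC, and the difference itself was 1.97 (adjusted p = 2.97e-07). Pdk4 was at -1.25 in AC30 and 0.48 in DeAC (difference 1.73, adjusted p = 3.62e-08). Slc25a20 (-0.30 and 0.34), Acaa2 (-0.34 and 0.26), Me1 (-0.24 and 0.46), Gpam (-0.32 and 0.41), Dgat1 (-0.26 and 0.43), Pdk1 (-0.31 and 0.27), Ucp3 (-0.65 and 0.84) and Pla2g7 (-0.68 and 0.86) had the same order, each with a difference that passed, and all of these differences also passed in the 10 fits that left out 1 array. Pfkp had the opposite one, at 0.29 in AC30 and -0.53 in DeAC. These paired values share the control pools, and AC30 was 1 month younger than DeAC.

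After 2 days back in the heat, Bdh1 and Ucp3 stood below their DeAC level. Across all genes, DeAC minus ReAC gave 560 calls, 3.91% of the genes tested, between groups of the same labelled age. This count rested on single arrays: it was 98 without ReAC pool 1, 132 without ReAC pool 2, 177 without DeAC pool 2, 202 without DeAC pool 1, 362 and 361 without an AC2d pool, and 866 and 863 without a control pool. Bdh1 was at -0.13 against control in ReAC, and the difference of 1.02 between DeAC and ReAC passed (adjusted p = 0.000259). Ucp3 differed by 1.19, Ephx2 by 0.97, Me1 by 0.37 and Sgms2 by 0.93 in the same direction, the last of which did not pass without DeAC pool 2 or ReAC pool 1 (highest adjusted p = 0.0758). For Pdk4 the difference did not pass (0.23, adjusted p = 0.133), nor for Slc27a1 (0.23, adjusted p = 0.0715), and each passed without either AC30 pool. Cyp2e1 was higher still in ReAC, where it stood at 2.72 above control (DeAC minus ReAC -0.89, adjusted p = 0.00220).

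**Figure D3:**
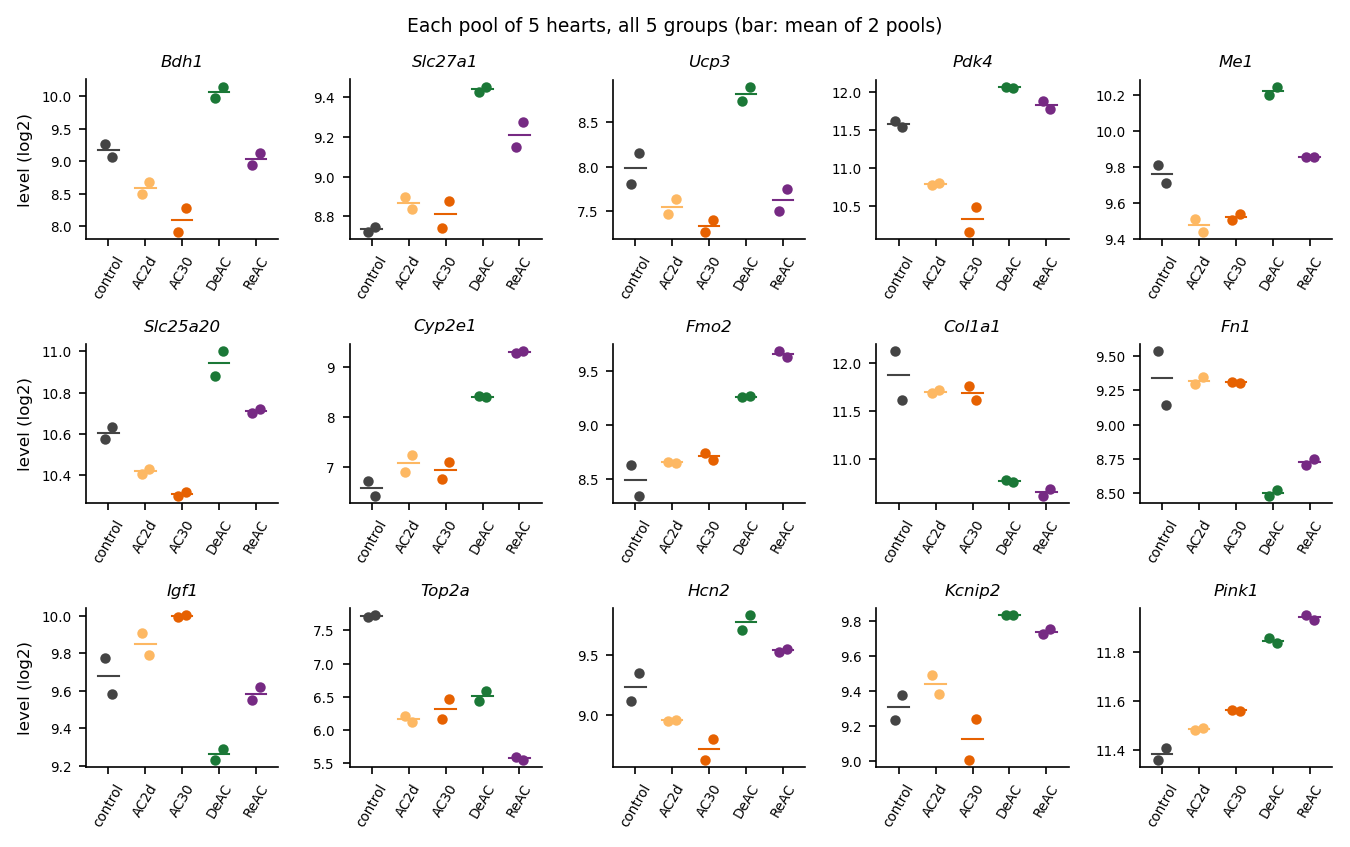
Levels (log2, vertical axis) of 15 genes in each pool of the 5 groups (horizontal axis), with 1 point per pool and a bar at the mean of the pools. Bdh1, Ucp3, Pdk4, Me1 and Slc25a20 lie under control in AC30 and above it in DeAC, and Col1a1, Fn1 and Top2a are lower in DeAC than in control.

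Of 104 enzymes that handle foreign compounds, Cyp2e1 and Ephx2 included, 11 passed as higher (10.6%, against 4.45% of all genes) and 0 as lower. The other 93 did not pass, 42 of all had a negative change, and the median was 0.04. The flavin monooxygenase Fmo2 read 8.63 and 8.34 in control and 9.25 and 9.27 in DeAC (0.78 ± 0.08, adjusted p = 7.0e-05), and Fmo1 read 7.82 and 7.64 against 8.31 and 8.41 (0.63 ± 0.08). The carboxylesterase Ces1d, which also acts on triglyceride, read 6.77 and 6.75 against 7.41 in both DeAC pools (0.65 ± 0.08). Fmo2 was 1.17 above control in ReAC and 0.22 in AC30, and DeAC differed from AC30 (0.55, adjusted p = 0.000247). Its difference from ReAC (-0.40, adjusted p = 0.0123) did not pass without any 1 of the DeAC or ReAC pools (highest adjusted p = 0.136). Without DeAC pool 2 the count of 11 went to 5.

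Among glutathione and antioxidant genes, 9 of 49 passed as higher (18.4%, against 4.45% of all genes) and 2 as lower. Mitochondrial thioredoxin reductase (Txnrd2) rose from 8.49 and 8.63 to 8.94 and 8.96 (0.39 ± 0.06), while Gpx7, a peroxidase of the endoplasmic reticulum, fell from 8.72 in both control pools to 7.98 and 8.23 (-0.61 ± 0.08). Txnrd2 was at -0.22 against control in AC30, and the difference from DeAC passed (0.62, adjusted p = 2.66e-05). The count of 9 went to 2 without DeAC pool 2, and the count of 2 to 5 without control pool 2.

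A number of matrix genes fell. All 9 fibrillar collagen genes had negative changes, 5 of them passed (55.6%, against 3.77% of all genes called lower), and the median was -0.45. Type I collagen, the main tension-bearing fibre of the heart, is built from Col1a1 and Col1a2. Col1a1 went from 12.13 and 11.62 in control to 10.78 and 10.76 in DeAC (-1.10 ± 0.11, adjusted p = 7.4e-05), and Col1a2 from 11.79 and 11.44 to 10.85 and 10.88 (-0.75 ± 0.08). Col3a1, of the thinner fibres, fell by 0.92 ± 0.06, and the fibre-nucleating collagens Col5a1 and Col5a2 fell by 0.66 ± 0.07 and 0.45 ± 0.06. In each of these genes, as in all 540 genes called lower, the DeAC pools lay under both control pools. The count of 5 was 5 or 6 in every fit that left out 1 array.

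The machinery that folds, trims and links collagen followed with 11 of 29 genes lower (37.9%, against 3.77% of all genes) and 0 higher (median -0.17). The collagen chaperone Serpinh1 read 10.74 and 10.78 in control and 10.49 in both DeAC pools (-0.28 ± 0.04). Adamts2, which trims procollagen, fell by 0.38 ± 0.06, the lysyl hydroxylase Plod2 by 0.43 ± 0.08, and the crosslinking oxidase Loxl1 from 9.34 and 9.49 to 8.97 and 8.83 (-0.51 ± 0.07). With median scaling the count of 11 went to 2, and without either DeAC pool it was 7.

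Fibronectin (Fn1), the adhesive scaffold of young matrix, read 9.54 and 9.14 in control and 8.48 and 8.52 in DeAC (-0.84 ± 0.09, adjusted p = 0.00015). Fibrillin 1 (Fbn1), the backbone of microfibrils, fell by 0.63 ± 0.05, Sparc, a collagen binding protein, by 0.41 ± 0.04 and Mfap4, a microfibril protein, by 0.37 ± 0.07. Of 30 elastic fibre and matricellular genes 12 passed as lower and 1 as higher, the latter being Ccn1, an early response gene (8.61 and 8.30 against 9.04 and 9.33). The count of 12 went to 6 without DeAC pool 2 and to 6 with median scaling.

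Proteoglycans divided by gene, with 17.4% called lower and 4.35% higher, against 3.77% and 4.45% of all genes. Versican (Vcan), a large proteoglycan of growing tissue, read 8.32 and 8.16 in control and 7.65 and 7.75 in DeAC (-0.54 ± 0.08), and biglycan (Bgn) fell from 10.58 and 10.30 by 0.49 ± 0.08. Decorin (Dcn), a small proteoglycan that binds collagen fibrils in mature tissue, rose from 11.81 and 11.78 to 12.07 and 12.09 (0.28 ± 0.05). Of 23 proteoglycans 4 were called lower and 1 higher, and 2 were lower without DeAC pool 2 or control pool 1 and 7 without control pool 2. The fibroblast marker gelsolin (Gsn) also rose, from 11.87 and 11.80 to 12.18 and 12.20 (0.36 ± 0.04).

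Of 10 basement membrane laminins and nidogens 3 passed as lower (30.0%, against 3.77% of all genes), and 1 with median scaling. The median was -0.11, and of 15 other collagens 2 were lower (13.3%). Among them, Col4a1, Lamc1 and Nid2 fell by 0.49 ± 0.07, 0.32 ± 0.05 and 0.53 ± 0.09. Col14a1, which ties collagen fibrils together, fell by 0.50 ± 0.08. Of matrix proteases and their inhibitors, 5 of 30 were called lower and 0 higher, but 0 passed without DeAC pool 2 or with median scaling, and 2 without DeAC pool 1.

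Markers of the matrix-producing cells gave calls both ways. Of 18 fibroblast markers, 3 passed as higher and 3 as lower, and the latter count was 1 without either DeAC pool or control pool 1 and 5 without control pool 2. The change was negative for 14 of the 18, with a median of -0.16, while the summed level, which bright genes dominate, was 13.79 and 13.71 in control and 13.83 and 13.86 in DeAC. The median change of the fibrillar collagens was -0.48 without control pool 1 and -0.51 without control pool 2. Control pool 1 had the higher atrial marker level, but control pool 2 also lay above both DeAC pools (13.61 against 13.02 and 13.03). The part of atrial tissue in the matrix changes was not tested.

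Against AC30, Col1a1 was lower in DeAC by 0.92 (adjusted p = 8.43e-05), Col3a1 by 0.75 and Fn1 by 0.81. Against control the AC30 pools stood at -0.18, -0.17 and -0.03 for these genes, and none of these changes passed. ReAC hearts stood at -1.22, -0.97 and -0.62, and for none of these 3 genes did DeAC and ReAC differ past the threshold, though Fn1 did without either control pool.

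Genes of cell division were lower in DeAC. Of 64 mitosis and cytokinesis genes, 33 passed as lower (51.6%, against 3.77% of all genes) and 0 as higher, and the median was -0.39. The DNA-untangling enzyme Top2a read 7.69 and 7.74 in control and 6.44 and 6.58 in DeAC (-1.20 ± 0.11, adjusted p = 5.3e-05). Prc1, which bundles the microtubules of the midzone, read 6.89 and 6.81 against 5.75 and 6.05 (-0.95 ± 0.13). The chromosome motor Kif4a fell by 0.87 ± 0.12, the kinetochore protein Nuf2 by 0.76 ± 0.10, and stathmin (Stmn1), which takes microtubules apart, by 0.59 ± 0.07. The count of 33 went to 17 without DeAC pool 1 and to 21 without control pool 2.

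DNA replication genes moved less as a list, with 5 of 51 lower and a median of -0.12, and the count lay between 2 (without DeAC pool 2) and 7 with 1 array left out. The share of this list called lower was 9.80%, against 3.77% of all genes. The nucleotide-making enzyme Rrm2 fell from 6.79 and 6.65 to 5.75 and 5.85 (-0.93 ± 0.12), and Uhrf1, which carries DNA methylation through replication, by 0.67 ± 0.10. Of 8 core histones 2 passed as lower (4 without control pool 1), as did 2 of 5 linker histones, with H1f5 at -1.15 ± 0.12, H1f1 at -1.05 ± 0.10, H2ac4 at -0.75 ± 0.11 and H2bc18 at -0.69 ± 0.10. Ezh2, the histone H3 methyltransferase of the Polycomb complex, read 7.29 and 7.27 in control and 6.82 and 6.67 in DeAC (-0.53 ± 0.10), and this call ended without DeAC pool 2 (adjusted p = 0.0583).

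For Top2a, DeAC and AC30 did not differ past the threshold (0.19, adjusted p = 0.292), and both lay under control. ReAC lay lower still, at -2.14 against control, and DeAC exceeded it by 0.94 (adjusted p = 0.000516). Prc1 (0.60, adjusted p = 0.0187) and Kif4a (0.49, adjusted p = 0.0333) also stood higher in DeAC than in ReAC, but not with either ReAC pool or DeAC pool 2 left out (highest adjusted p = 0.185 and 0.227), and Kif4a not without DeAC pool 1 or an AC2d pool either. Of the 64 mitosis genes, 6 passed as higher in DeAC than in ReAC (2.21% of all genes did) and 0 as lower (1.7% of all genes).

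Because the mitosis genes moved together, their promoters are shown. In cycling cells such genes are known to share CCAAT boxes, bound by NF-Y, and a cell cycle element with the core TTTGAA. The sequences are the 250 bases before the transcription start of the 4 genes with the smallest p in the list, from RefSeq on GRCr8, written 5′ to 3′ on the strand of the gene. Capitals mark CCAAT or its reverse complement ATTGG, and TTTGAA or its reverse complement TTCAAA. They are Top2a (chr10:84473094-84473343, minus strand), Stmn1 (chr5:151964929-151965178, plus strand), Kif4a (chrX:69761633-69761882, plus strand) and Prc1 (chr1:143659231-143659480, plus strand).
Top2a: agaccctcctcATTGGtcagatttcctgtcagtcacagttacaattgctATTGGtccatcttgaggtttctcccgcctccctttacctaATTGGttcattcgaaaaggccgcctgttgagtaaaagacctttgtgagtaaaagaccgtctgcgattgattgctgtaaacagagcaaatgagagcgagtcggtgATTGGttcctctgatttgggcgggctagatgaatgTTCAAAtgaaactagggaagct
Stmn1: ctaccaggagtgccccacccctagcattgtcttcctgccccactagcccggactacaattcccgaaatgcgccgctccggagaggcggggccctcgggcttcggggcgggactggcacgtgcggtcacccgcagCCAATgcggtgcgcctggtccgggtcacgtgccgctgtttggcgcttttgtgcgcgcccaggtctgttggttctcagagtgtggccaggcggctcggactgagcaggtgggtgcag
Kif4a: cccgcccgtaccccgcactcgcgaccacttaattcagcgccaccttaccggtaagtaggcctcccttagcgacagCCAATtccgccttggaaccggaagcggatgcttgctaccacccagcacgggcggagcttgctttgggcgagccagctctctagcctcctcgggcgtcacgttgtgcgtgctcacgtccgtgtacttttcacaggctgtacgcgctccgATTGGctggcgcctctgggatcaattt
Prc1: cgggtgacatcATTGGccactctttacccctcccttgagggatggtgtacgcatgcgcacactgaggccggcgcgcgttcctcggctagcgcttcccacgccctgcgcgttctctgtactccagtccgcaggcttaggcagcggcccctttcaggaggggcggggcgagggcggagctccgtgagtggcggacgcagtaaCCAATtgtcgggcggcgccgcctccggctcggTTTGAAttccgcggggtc

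Top2a holds 4 CCAAT motifs and 1 TTTGAA motif, Prc1 holds 2 and 1, Kif4a holds 2 and 0, and Stmn1 holds 1 and 0. CCAAT, on either strand, was found in 36 of the 53 mitosis genes that had a promoter in the table (67.92%) and in 34.29% of all 27457 RefSeq promoters. TTTGAA was found in 25 of the 53 (47.17%) and in 16.03% of all. The motifs do not overlap each other in letters, and a match describes the sequence and does not show binding.

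Of 22 imprinted and fetal growth genes, 8 passed as lower (36.4%, against 3.77% of all genes) and 0 as higher, with a median of -0.28. Igf1, a growth factor for muscle and many other cells, read 9.77 and 9.58 in control and 9.23 and 9.29 in DeAC (-0.42 ± 0.07), and its binding protein Igfbp5 read 11.20 and 10.77 against 10.34 and 10.40 (-0.62 ± 0.10). The imprinted genes Ndn and Grb10, which hold back proliferation and insulin signals, fell by 0.63 ± 0.10 and 0.37 ± 0.06. Igf2 read 6.89 and 6.94 against 6.62 and 6.58 (-0.31 ± 0.09) and did not pass (adjusted p = 0.061). The count of 8 was 5 without either DeAC pool or without control pool 1, and 4 with median scaling.

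The imprinted RNA H19 read 7.59 and 7.66 in control and 7.06 and 7.29 in DeAC (-0.46 ± 0.09), a call that ended without DeAC pool 1 (adjusted p = 0.0547). Against the same control it stood at 1.78 in AC2d, 1.39 in AC30 and 0.09 in ReAC. The difference between DeAC and AC30 was -1.85 (adjusted p = 3.62e-08) and that between DeAC and ReAC -0.54 (adjusted p = 0.00356, or 0.0524 without ReAC pool 1). Igf1 also lay on opposite sides of control, at 0.32 in AC30 and -0.42 in DeAC, and that difference passed (-0.74).

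In the TGF-beta family, Inha, a subunit of inhibin, read 8.35 and 8.16 in control and 7.56 and 7.59 in DeAC (-0.68 ± 0.09), and Fstl1, a secreted follistatin relative, read 10.01 and 9.87 against 9.26 and 9.31 (-0.65 ± 0.06). Inha was lower still in AC30 (-1.85) and ReAC (-1.67), and DeAC exceeded them by 1.17 (adjusted p = 2.73e-06) and 0.99 (adjusted p = 6.93e-05). Of 37 TGF-beta and BMP signalling genes, 5 passed as lower (13.5%, against 3.77% of all genes) and 1 as higher. With median scaling, 2 were lower. The Wnt receptor Fzd6 fell by 0.47 ± 0.07. Of 48 Wnt ligands, receptors and modulators, 3 passed as lower (6.25%, against 3.77% of all genes) and 0 as higher.

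Contractile genes changed one by one. The slow myosin heavy chain Myh7 read 11.24 and 11.77 in control and 12.60 and 12.56 in DeAC (1.07 ± 0.11, adjusted p = 9.2e-05). The fast chain Myh6 read 13.31 and 13.29 against 13.28 and 13.25 and did not pass (-0.03 ± 0.03, adjusted p = 0.65). Myh7 was also high in AC2d (1.30), AC30 (1.33) and ReAC (1.78), and DeAC lay under ReAC by 0.71 (adjusted p = 0.00390, or 0.0599 without ReAC pool 1). Skeletal actin Acta1, an actin form of the immature and the overloaded heart, fell from 12.45 and 12.65 to 12.11 and 12.14 (-0.42 ± 0.06), and the natriuretic peptide gene Nppb from 11.10 and 10.68 to 10.38 and 10.39 (-0.50 ± 0.09). Of 48 sarcomere and Z-disc genes 3 were higher (6.25%, against 4.45% of all genes) and 8 lower (16.7%, against 3.77%). The lower group includes the atrial Myl7. With DeAC pool 2 left out, 1 was higher and 5 lower, and without control pool 2, 5 were higher.

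In calcium handling, the pump and its brake were close to control, though other members of the list passed in both directions. Of the list, 7.69% passed as higher and 10.3% as lower, against 4.45% and 3.77% of all genes. The pump Atp2a2 read 13.29 and 13.25 in control and 13.32 and 13.30 in DeAC (0.04 ± 0.03, adjusted p = 0.54), and phospholamban (Pln), which brakes the pump, changed by 0.05 ± 0.04 (adjusted p = 0.48). Calmodulin gene Calm2, at 9.58 and 9.64 in DeAC, fell by 0.34 ± 0.05 from control. Of 39 calcium cycling genes, 3 were called higher and 4 lower, and 1 and 2 without DeAC pool 2, 0 and 2 without DeAC pool 1, and 7 lower without control pool 2.

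Of 50 potassium, sodium and pacemaker channels, which shape the heartbeat, 9 passed as higher, against 4.45% of all genes, and 0 as lower. The other 41 did not pass, and 23 of the 50 had a negative change. Kcnip2, the partner subunit of the transient outward potassium current, read 9.24 and 9.38 in control and 9.84 in both DeAC pools (0.53 ± 0.07). The pacemaker channels Hcn2 (9.12 and 9.35 against 9.71 and 9.83, 0.54 ± 0.08) and Hcn4 (7.32 and 7.11 against 7.92 and 7.86, 0.68 ± 0.08) rose, and so did Kcnj11, the pore of the channel that opens when ATP is short (0.36 ± 0.06). Hcn2 was at -0.51 in AC30, so that DeAC exceeded AC30 by 1.05 (adjusted p = 2.78e-06), whereas Hcn4 was at 0.65 there and did not differ past the threshold (0.03, adjusted p = 0.884). The count of 9 was 4 without DeAC pool 2 and 5 without control pool 1.

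Quality control genes of muscle gave 6 of 41 higher (14.6%, against 4.45% of all genes) and 2 lower (4.88%, against 3.77%). The mitophagy kinase Pink1 read 11.36 and 11.41 in control and 11.86 and 11.84 in DeAC (0.46 ± 0.04, adjusted p = 2.1e-05). Trim54, a ubiquitin ligase of the sarcomere, rose by 0.49 ± 0.05, whereas its relative Trim55 fell by 0.29 ± 0.05. The autophagosome protein Map1lc3b rose by 0.27 ± 0.05 and the stress protein Sesn1 by 0.40 ± 0.07. None of 40 apoptosis regulators passed in limma, 6 of them with an unadjusted p under 0.05.

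Heat shock proteins, the classic product of heat stress, gave 8 of 43 higher (18.6%, against 4.45% of all genes) and 1 lower in these hearts, 30 days after the heat had ended. The small heat shock protein Hspb8 read 10.66 and 10.69 in control and 10.97 and 10.96 in DeAC (0.29 ± 0.04), the nucleotide exchange factor Hspa4l 7.42 and 7.26 against 7.89 and 7.88 (0.55 ± 0.09), and Dnajb4 rose by 0.32 ± 0.05. The abundant forms changed little: Hspa8 read 13.23 and 13.17 against 13.21 and 13.18, Hsp90aa1 10.63 and 10.58 against 10.56 and 10.50, and Hsp90ab1 12.32 and 12.25 against 12.40 and 12.36, and none of the 3 passed. The count of 8 went to 3 without either DeAC pool or without control pool 1, and to 5 without any 1 of the AC2d or ReAC pools. DeAC also exceeded AC30, taken directly after the heat, by 0.57 for Hspa4l (adjusted p = 0.000476) and 0.46 for Dnajb4 (adjusted p = 4.67e-05). For Hspb8 this difference was 0.16 (adjusted p = 0.0239), but it did not pass without AC30 pool 1 or without either DeAC pool. Of the 43 heat shock genes, 10 were higher and 4 lower in DeAC than in AC30, against 9.85% and 7.45% of all genes. In the endoplasmic reticulum, Herpud1, which helps to remove misfolded proteins, rose from 9.53 in both control pools to 9.94 and 10.03 (0.45 ± 0.06).

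Genes that respond to glucocorticoids gave 9 of 25 higher (36.0%, against 4.45% of all genes) and 1 lower (median 0.12). The transcription factor Zbtb16 read 9.02 and 9.07 in control and 9.88 and 9.82 in DeAC (0.81 ± 0.05, adjusted p = 6.8e-06), and the receptor co-chaperone Fkbp5 read 7.46 and 7.73 against 8.28 and 8.34 (0.72 ± 0.12). In AC30 Zbtb16 was at -0.34 against control, and DeAC exceeded it by 1.15 (adjusted p = 3.62e-08). Fkbp5 reached 1.28 in ReAC, above DeAC by 0.56 (adjusted p = 0.0233), a difference that did not pass without any 1 of the DeAC or ReAC pools (highest adjusted p = 0.159). Without DeAC pool 2 the count of 9 went to 3.

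Among signalling genes known from earlier work on heat-acclimated rat hearts, Mapk14 (the kinase p38 alpha) read 8.63 and 8.61 in control and 8.89 and 8.86 in DeAC (0.25 ± 0.08, adjusted p = 0.0600). It did not pass, but passed without either AC30 pool (adjusted p = 0.0344 and 0.0341), on the values as deposited (0.0318), with median scaling (0.0209) and with the dimmest genes left out (0.0425). Akt1 read 10.34 and 10.43 against 10.48 and 10.43 (0.07 ± 0.06), Stat3 10.04 and 10.16 against 10.02 and 9.91 (-0.14 ± 0.06), and Parp1 9.76 and 9.74 against 9.91 and 9.86 (0.13 ± 0.05), and none of these passed, though Parp1 did on the values as deposited (adjusted p = 0.0465) and with median scaling (0.0387). The DNA ligase Lig4 read 7.45 and 7.41 against 8.10 and 8.23 (0.74 ± 0.08, adjusted p = 8.3e-05). Of 35 DNA repair and PARP genes, 2 were higher (5.71%, near the 4.45% of all genes) and 0 lower.

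Immune genes stood higher in part. Of 34 macrophage and MHC class II markers, 9 passed as higher (26.5%, against 4.45% of all genes) and 0 as lower, and the median was 0.20. The pan-leukocyte protein Cd53 read 6.07 and 6.20 in control and 6.85 and 7.14 in DeAC (0.86 ± 0.13), the MHC class II chain RT1-Da 8.51 and 8.64 against 8.98 and 9.09 (0.46 ± 0.07), its invariant chain Cd74 10.39 and 10.47 against 10.70 and 10.71 (0.27 ± 0.05), and the lysozyme Lyz2 7.99 and 8.15 against 8.47 and 8.51 (0.42 ± 0.08). The summed level of the list was 12.63 and 12.73 in the control pools, 12.87 and 12.94 in DeAC, 12.77 and 12.78 in AC30, and 13.10 and 13.13 in ReAC. Without DeAC pool 2 the count was 5.

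Of 43 complement and chemokine genes, 6 passed as higher and 1 as lower, with a median of -0.01 and 23 negative changes. The protease C1s read 7.82 and 7.85 in control and 8.70 and 8.59 in DeAC (0.81 ± 0.07, adjusted p = 2.8e-05), its partner C1r rose by 0.30 ± 0.05, and Serping1, the inhibitor of both proteases, by 0.39 ± 0.07. The chemokine Cxcl11 read 8.03 and 7.88 against 8.72 and 8.69 (0.75 ± 0.14). C1s was above control in AC30 as well (0.71), and the difference from DeAC did not pass (0.10, adjusted p = 0.391). Of 46 interferon response genes, 6 were higher and 1 lower, with a median of 0.04. Without DeAC pool 2, 1 was higher and 3 lower (median -0.05), and without control pool 1, 4 were higher and 3 lower (median -0.04). Mx1, an antiviral GTPase, read 5.48 and 5.60 in control and 6.10 and 6.57 in DeAC (0.79 ± 0.15), and its call ended without DeAC pool 2 (adjusted p = 0.0682).

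Some vessel genes fell: 25.0% of the endothelial and 26.3% of the smooth muscle and pericyte markers passed as lower, against 3.77% of all genes. Of 20 endothelial markers 5 were lower and 0 higher, among them Egfl7, a matrix protein that endothelium secretes (9.40 and 9.50 against 9.15 and 9.06, -0.34 ± 0.06), but 1 marker passed with median scaling, 1 without DeAC pool 2 and 3 without DeAC pool 1. Of 19 smooth muscle and pericyte markers, 5 were lower and 0 higher, with 3 lower without DeAC pool 1 and 9 without control pool 2. The adhesion protein Mcam read 9.60 and 9.75 in control and 9.07 and 9.02 in DeAC (-0.63 ± 0.06), and the smooth muscle light chain Myl9 read 9.13 and 8.62 against 8.09 and 7.83 (-0.92 ± 0.13). Angpt1, a ligand that steadies vessels, rose by 0.35 ± 0.06. The summed level of the endothelial list was 12.89 and 12.88 in DeAC, below both control pools, of which the second had 13.13.

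Other cell types were checked by their markers. Mesothelial genes gave 3 of 14 lower, with Msln at 7.64 and 7.40 in control and 6.75 and 6.64 in DeAC (-0.83 ± 0.10) and Gpm6a at -0.55 ± 0.08. The summed level of the 26 cardiomyocyte markers was 17.19 and 17.23 in control and 17.26 and 17.24 in DeAC. Schwann cell and neuronal markers gave 3 of 24 lower, a count that went to 13 without control pool 2 and 0 without control pool 1. Adipocyte markers gave 3 of 17 lower, 10 without control pool 2, 0 without DeAC pool 1, and 1 without DeAC pool 2 or control pool 1. The part that these cells play in the changes above was not tested.

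**Figure D4:**
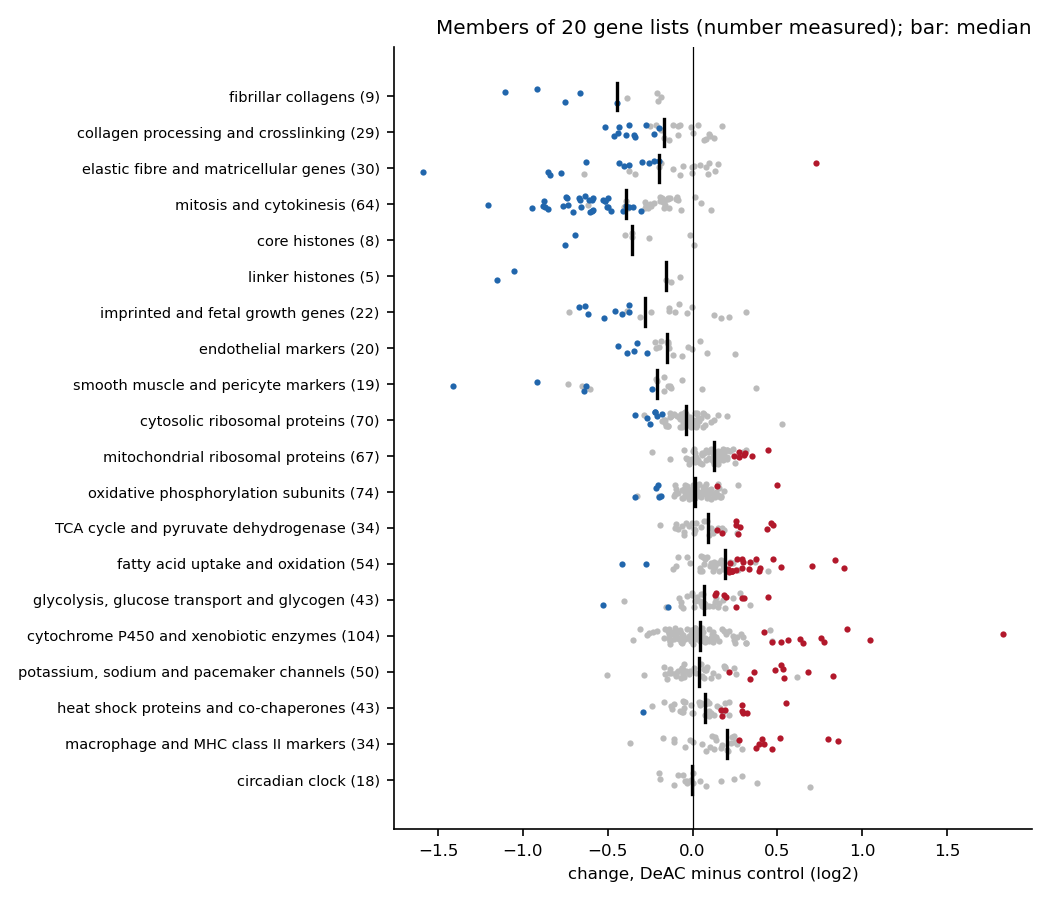
Change between control and DeAC (log2, horizontal axis) of every measured member of 20 gene lists (rows, number measured in brackets), with 1 point per gene and a bar at the median. Red points passed as higher, blue as lower and grey did not pass. The medians of the fibrillar collagens (-0.45), mitosis genes (-0.39) and core histones (-0.36) lie lowest among these 20 lists, and those of macrophage markers (0.20) and fatty acid oxidation (0.19) highest; the atrial (-0.49) and nerve (-0.38) markers are not drawn.

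The authors' deposited table of signed fold changes gave the same genes a similar size. It lists 3.59 for Cyp2e1, 1.93 for Bdh1, -2.09 for Col1a1 and -2.31 for Top2a in DeAC against control. Of its 651 probe sets, 507 are genes tested here, and 31 of these exceed a fold of 2 in either direction for DeAC in the authors' deposited table.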

How the data were processed

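RNA of 10 arrays was used, 2 separate biological pools of 5 rats in each of 5 groups. The authors deposited log2 expression values per probe set; the method of summarisation and normalization was not given in the sources used here, and their columns were not equally distributed. The authors also deposited a score per probe set, a signed fold change against control, which is quoted and not tested. Of 27342 probe sets, 15097 have 1 gene symbol, 323 several and 11922 none in the platform annotation, and 15067 of the first were found in RefSeq GRCr8. For 499 genes with several probe sets the brightest was kept, which left 14324 genes.

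Arrays were quantile normalized together and fitted with limma 3.58.1 in R 4.3.3 (1 mean per group, trended eBayes, 5 residual and 8.31 prior degrees of freedom), with Benjamini-Hochberg adjustment over all genes and a threshold of 0.05. On simulated data of the comparison of DeAC with control (14324 genes, 5 runs with 200 changed genes each), 62.6% of genes changed by 0.5 log2 units and 96.2% of those changed by 1 were recovered, and 4.11% of calls were false. The simulation gave every group the same spread, while the control pools of the data lay further apart than those of any other group. Its share of false calls therefore does not give that of the comparison itself. Where a fit left a group with 1 pool, that pool was assumed to vary like the other groups. Pool numbers were checked as pairs and do not pair the samples. The number of arrays limits the precision.

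Genes eligible to be named were the up to 20 largest passing changes per direction without overlap of the pools, up to 5 passing members per direction of each list (the 2 with the smallest p where none passed), a fixed set, and up to 5 per direction in the comparisons of DeAC with AC30 and ReAC. That gave 277 genes, of which 259 passed and 121 passed in all fits with 1 array left out; most examples come from these 121, chosen after their values were seen. The compared groups and the lists were chosen with earlier results of these data known. Alternatives were the deposited scale, median scaling, an untrended spread, a filter on dim genes, other handling of probe sets, the compared groups alone, the pool number as a block, other thresholds, and leaving out 1 array at a time.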

Additional observations from a re-analysis of the deposited data

Results flagged for a closer look

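For the 26 genes listed here, DeAC and AC30 lay on opposite sides of the same control pools. Their difference passed in limma with an adjusted p under 0.05. The groups share these control pools, and AC30 rats were 1 month younger. The list is not complete: other genes named above met the same description, such as Cxcl11 (DeAC minus AC30 1.19) and Fkbp5 (1.07). On the log2 scale, DeAC minus AC30 was positive for genes of fuel use: 1.97 for Bdh1, 1.73 for Pdk4, 1.48 for Ucp3, 0.70 for Me1, 0.64 for Slc25a20, 0.59 for Acaa2 and 0.57 for Pdk1. Lipid assembly and phospholipid genes gave 0.73 for Gpam, 0.69 for Dgat1 and 1.53 for Pla2g7. The remaining positive differences among the 26 were 1.15 for Zbtb16, 1.05 for Hcn2 and 0.62 for Txnrd2.

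The difference was negative for Igf1 (-0.74), H19 (-1.85), Bgn (-0.75), Pfkp (-0.82), Trim55 (-0.46), Hamp (-4.32) and the mesothelial gene Msln (-1.49). It was most negative for the atrial genes Sln (-7.11), Bmp10 (-7.08), Myl7 (-5.42), Mybphl (-4.88) and Nppa (-3.87), and Nppb gave -0.97. In Hamp, Sln, Bmp10, Myl7, Mybphl and Nppa the control pools themselves lay far apart.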

How the results depend on the processing

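With 2 pools per group, the counts hang on single arrays and on the model of the spread. None of the 259 passing named genes turned direction under any alternative, but this was largely fixed by choosing passing genes. The DeAC and control pools did not overlap in any of the 638 genes called higher or 540 called lower. Leaving out 1 pool thus cannot turn a sign. Against control, 1178 genes passed, and 464 to 1374 with 1 array left out. The count was 558 with an untrended spread, 504 with the 2 groups fitted alone, 473 at an adjusted p under 0.01, 1891 at 0.10, and 254 with a change over 0.5 log2 units. DeAC minus AC30 gave 2478 calls, 1445 to 2788 with 1 array left out, 1445 at 0.01 and 613 with a change over 0.5. DeAC minus ReAC gave 560 calls, 98 to 866 with 1 array left out, 365 on the values as deposited, 213 with median scaling, 160 with an untrended spread, 1002 with these groups alone, 173 at 0.01, 873 at 0.10 and 139 with a change over 0.5. The cause of these shifts was not tested. The share of calls that were higher was 62.27% on the deposited scale and 81.95% with median scaling, against 54.16%. For DeAC minus AC30 it was 80.72% with median scaling, against 56.94%. Among named genes, median scaling ended 70 calls, the untrended spread 108, leaving out DeAC pool 2 ended 118 and control pool 1 ended 82. Genes that did not pass could turn sign. Hspa8 was at 0.0261 on deposited values, 0.0987 with median scaling, 0.0206 with the mean of its probe sets, 0.0065 without DeAC pool 2, and at 0.0225 and -0.035 without control pools 1 and 2. Hsp90aa1 was at 0.032 with median scaling. Myh6 was at 0.0003 on deposited values and 0.0729 with median scaling. Bmal1 was at 0.0477 on deposited values, 0.1203 with median scaling, 0.0006 without DeAC pool 1, -0.193 without control pool 1 and 0.1756 without control pool 2. Dbp was at 1.1818 without control pool 1 and at -0.6052 without control pool 2. Low signal over background limits the dim genes.

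The pool number as a replicate block gave 1265 calls against control, 2539 against AC30 and 595 against ReAC. Deviations of equally numbered control and DeAC pools correlated at -0.0772 over 14324 genes, DeAC and ReAC at 0.057, and AC30 and DeAC at 0.2097. With 2 pools a group such a value neither establishes nor excludes pairs.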
